A study of Mus musculus with 18 samples.

Results

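The maturation of thymic XCR1+ dendritic cells was compared between mice that lack the type I interferon receptor chain IFNAR1 (Ifnar1-KO) and wild-type mice (CTRL). The quantity examined for each gene was a difference of 2 changes, namely the CCR7+ minus CCR7- change in Ifnar1-KO minus the same change in CTRL. It used 12 of the 18 arrays of the series, 3 in each of 4 groups, and 19938 genes, each read from 1 probeset that carries exactly 1 gene symbol. A gene could come out as different (an adjusted p under 0.05), as shown equal within a stated bound, or as neither.

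All mice were of the B6 strain and untreated, and the cells were sorted from the thymus as CD11b-CD11c+MHCII+CD172a-XCR1+CD8a+. Mature cells were further gated as CD117-CCR7+ and immature cells as CD117+CCR7-. Ifnar1-KO and CTRL mice were kept free of specific pathogens. Another background, germ-free wild-type mice (GF, 6 arrays), entered the estimate of the spread and the choice of genes that change with maturation, and its values stand beside a few results. The labels give no age or sex, no source of the Ifnar1 allele and no word on separate mice behind replicate arrays, so p-values measure the spread between arrays, which may be technical. The arrays compare sorted cells and hold no count of cells that reached either stage, and fewer cells of a type and less RNA per cell cannot be told apart. RNA input lay between 0.7 and 7.3 ng per array and was amplified before labelling.

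The sorted phenotype was checked against its genes. On the 12 arrays Xcr1, the chemokine receptor that names these cells, read 4.89 to 8.36 in CCR7+ cells, although both stages were sorted as XCR1+, and 11.28 to 11.56 in CCR7- cells. Itgax (CD11c) read 6.44 to 8.17 in CCR7+ cells and 9.66 to 10.19 in CCR7- cells. Cd8a read 9.91 to 11.15 over both stages. Kit (CD117) read 5.31 to 7.04 in CCR7+ cells and 8.86 to 9.30 in CCR7- cells, and Itgam (CD11b) read 3.67 to 4.01 over both stages. Sirpa (CD172a), which was gated out, read 4.51 to 6.37.

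Type I interferons bind a receptor built from IFNAR1 and IFNAR2, and its kinases JAK1 and TYK2 then start a signal that switches on interferon stimulated genes through a short response element in their promoters. Dendritic cells that sense microbes or nucleic acids make and answer these interferons, and mature. In the thymus, XCR1+ dendritic cells also mature without infection, gain CCR7, costimulators and chemokines, lose uptake receptors and stop dividing.

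No gene had a maturation change that differed between Ifnar1-KO and CTRL by limma with Benjamini-Hochberg adjustment (0 of 19938, 0.0%, smallest adjusted p 0.837). Without adjustment, 901 genes (4.52%) had a p under 0.05, of which 299 (1.5%) had a higher and 602 (3.02%) a lower difference in Ifnar1-KO. Equality was tested on its own, with a pair of one-sided limma tests against a difference of log2 1 either way, which is a 2-fold difference between the changes. By that test 17604 genes (88.3%) were shown equal, and 2334 were neither different nor shown equal. The bound decides the count: 8915 genes (44.7%) were shown equal within log2 0.5, 19435 (97.5%) within log2 1.5, and 0 within log2 0.25. The 95% interval itself lay inside log2 1 for 16746 genes (84.0%), and its median half-width was 0.38.

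A gene that hardly changes with maturation is equal for that reason alone, so genes that do change were examined apart. In GF mice, whose arrays enter the comparison only through the pooled spread, 2150 genes (10.8%) were called and changed by at least log2 1. Of these, 913 rose and 1237 fell. Calls of any size in GF made up 9.53% of genes upwards and 11.8% downwards. Of the 2150 genes, 2146 moved in the same direction in Ifnar1-KO, and 1986 were also called there in that direction. Their maturation change was shown equal within log2 1 for 1288 (59.9%), 629 of the risers (68.9%) and 659 of the fallers (53.3%). Within log2 0.5 it was shown equal for only 63, and within log2 1.5 for 1954 (90.9%). The 95% interval itself lay inside log2 1 for 1047 of the 2150 genes, 534 risers and 513 fallers. Of the 862 not shown equal, 419 had an estimate smaller than 0.5 either way, 325 had an interval half-width over 1, and 46 of all 2150 had an estimate beyond 1. The GF call and the equality test use the same pooled spread. For a given size of change the choice therefore favours genes with a small spread, and the shares shown equal are not independent of it.

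**Figure D1:**
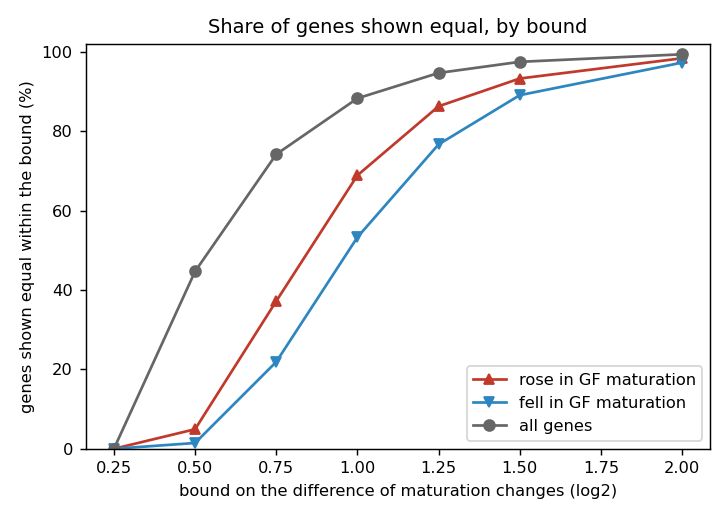
Share of genes shown equal between Ifnar1-KO and CTRL (y axis, percent) against the bound on the difference of maturation changes (x axis, log2), for genes that rose in GF maturation (red triangles), genes that fell (blue triangles) and all 19938 genes (grey circles). At log2 1 the shares are 68.9% of risers, 53.3% of fallers and 88.3% of all genes, and at log2 0.25 each is 0%.

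Risers kept a median of 104% of their CTRL change in Ifnar1-KO, with a median change of 1.62 in Ifnar1-KO against 1.54 in CTRL and a median difference of 0.06. Fallers kept a median of 84.2%, with a median change of -1.43 in Ifnar1-KO against -1.72 in CTRL and a median difference of 0.31. By replicate number the fallers' median change was -1.59, -1.28 and -1.54 in Ifnar1-KO, against -1.78, -1.69 and -1.71 in CTRL, so each of the 3 Ifnar1-KO values lay closer to 0 than each CTRL value. The risers' values were 1.71, 1.60 and 1.60 in Ifnar1-KO, against 1.53, 1.63 and 1.53 in CTRL, and the backgrounds overlapped. At an unadjusted p under 0.05, 89 fallers had a higher and 3 a lower difference, and among risers the counts were 27 and 11. The contrast between risers and fallers was not tested.

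The median difference varied with the level of a gene. Over all 6403 genes with a mean log2 intensity of at least 6 the median difference was 0.11, and 69.1% of them lay above 0, whereas it was -0.07 for genes under 4. Of those 6403 genes 75.6% were shown equal; the medians and counts of gene lists that follow stand beside these values. Over both directions the genes that mature in GF kept a median of 91.4% (quartiles 79.0% and 106%). The Ifnar1-KO pairs gave 98.7%, 84.8% and 95.3% of the mean CTRL change. Without both arrays of the lowest pair, replicate 2, fallers kept 89.9% and risers 107%. Without only the CCR7+ array of that pair fallers kept 85.6% and risers 108%. Without only its CCR7- array fallers kept 88.4% and risers 103%.

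Thymocyte markers were higher on Ifnar1-KO CCR7+ replicate 2. Over the 18 measured of 20 thymocyte markers the mean log2 level was 5.23, 7.50 and 5.51 on the Ifnar1-KO CCR7+ arrays and 4.59, 5.08 and 4.62 on the CCR7- arrays. It was 5.12 to 5.89 on the CTRL CCR7+ and 4.45 to 4.81 on the CTRL CCR7- arrays. Rag2, part of the recombinase of immature lymphocytes, had 3.22, 6.76 and 3.63 for the Ifnar1-KO CCR7+ arrays against 3.29 to 3.44 on the CTRL ones. The part of thymocyte RNA in the fallers' smaller changes was not tested. Spread differed too, with a median SD of 0.128 in Ifnar1-KO CCR7+ and 0.147 in CCR7- arrays, against 0.123 in CTRL CCR7+ and 0.0927 in CCR7- arrays.

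**Figure D2:**
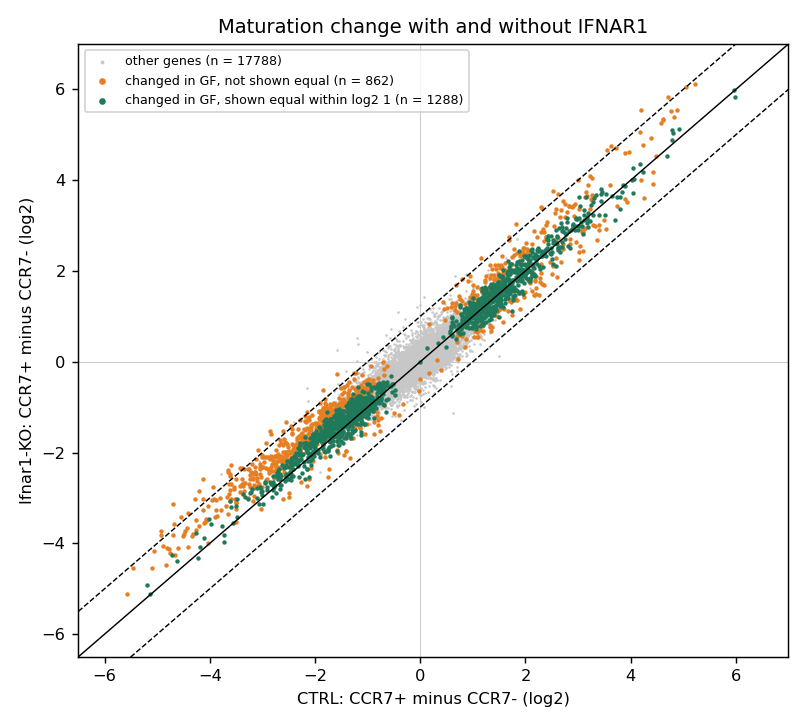
Maturation change (CCR7+ minus CCR7-, log2) in Ifnar1-KO (y axis) against that in CTRL (x axis), 1 point per gene. Green points are the 1288 genes that changed in GF and were shown equal within log2 1, orange points the 862 that changed in GF and were not, and grey points all others. The solid line marks equal changes and the dashed lines a difference of log2 1; most orange points on the falling side lie above the solid line.

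The target gene was read first. The Ifnar1 probeset (10436849) read 7.61, 6.07 and 6.96 in Ifnar1-KO CCR7+ cells against 7.61, 7.82 and 7.72 in CTRL. On CCR7- arrays it read 8.07, 7.27 and 7.66 in Ifnar1-KO against 8.09, 8.06 and 8.09 in CTRL. Replicate 1 of Ifnar1-KO read like CTRL at both stages, and no source used here says whether its probes lie inside the disrupted stretch, so the level does not check the genotype. Its maturation change differed by -0.42 ± 0.39 (SE) and was neither called nor shown equal (equality adjusted p 0.0867); with the replicate number as a block it was shown equal (equality adjusted p 0.00983). Ifnar2, the other receptor chain, was shown equal (0.30 ± 0.16, equality adjusted p 0.00065).

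The backgrounds also differed in sex-linked signal. Eif2s3y, a Y-linked translation factor gene, read 7.84, 7.69 and 6.35 in Ifnar1-KO CCR7+ cells against 3.41, 3.49 and 3.34 in CTRL. In CCR7- cells it read 6.83, 6.08 and 5.22 in Ifnar1-KO against 3.47, 3.40 and 3.36 in CTRL. The ranges do not overlap at either stage, so sex and genotype cannot be told apart. On GF arrays Eif2s3y read 8.07 to 8.76 in CCR7+ and 7.71 to 8.26 in CCR7- cells, so CTRL alone lacked the signal. GF values set beside those of Ifnar1-KO below share this contrast with CTRL. The difference of changes of Eif2s3y, Ifnar1-KO minus CTRL, was 1.25 (95% interval 0.10 to 2.39). The 5 other measured sex-linked genes had smaller differences, among them Kdm6a (0.05) and Kdm5c (-0.01), both shown equal.

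The genes with the largest maturation changes in GF included several that were shown equal. Stat4, a transcription factor of interleukin 12 signalling, read 9.75, 9.80 and 9.96 on Ifnar1-KO CCR7+ arrays and 3.73, 4.37 and 3.92 on CCR7- arrays. In CTRL it read 10.30, 10.55 and 9.85 on CCR7+ arrays and 4.40, 4.13 and 4.21 on CCR7- arrays. At both stages the backgrounds overlapped. The change was 5.83 in Ifnar1-KO against 5.98 in CTRL, a difference of -0.16 ± 0.24 that was shown equal (equality adjusted p 0.00279).

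Of the 10 largest rises in GF, 3 were shown equal: Stat4, Insl6, a relaxin-family hormone gene (0.03 ± 0.42), and Scin, which encodes an actin-severing protein (0.20 ± 0.33). The remaining 7 had estimates of 0.05 to 1.12, and the largest belonged to Anxa3, Tnfrsf4 and Serpinb1a. Of the 10 largest falls, 3 were shown equal: the double-stranded RNA sensor Tlr3 (0.28 ± 0.31), the kynurenine pathway enzyme Kmo (0.46 ± 0.27) and the nucleotide receptor P2ry6 (0.00 ± 0.47). The lysosomal amidase Naaa (0.46 ± 0.83), the endosomal GTPase Rab7b (0.90 ± 0.53) and 5 others were not. On the Ifnar1-KO CCR7+ arrays, replicate 3 was the highest of the 3 for 9 of the 10 falling genes and replicate 2 the lowest for 8. Naaa read 6.78, 5.34 and 8.55 there, against 6.76, 6.21 and 6.49 in CTRL, so its wide interval comes with an Ifnar1-KO group that reaches both above and below CTRL.

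**Figure D3:**
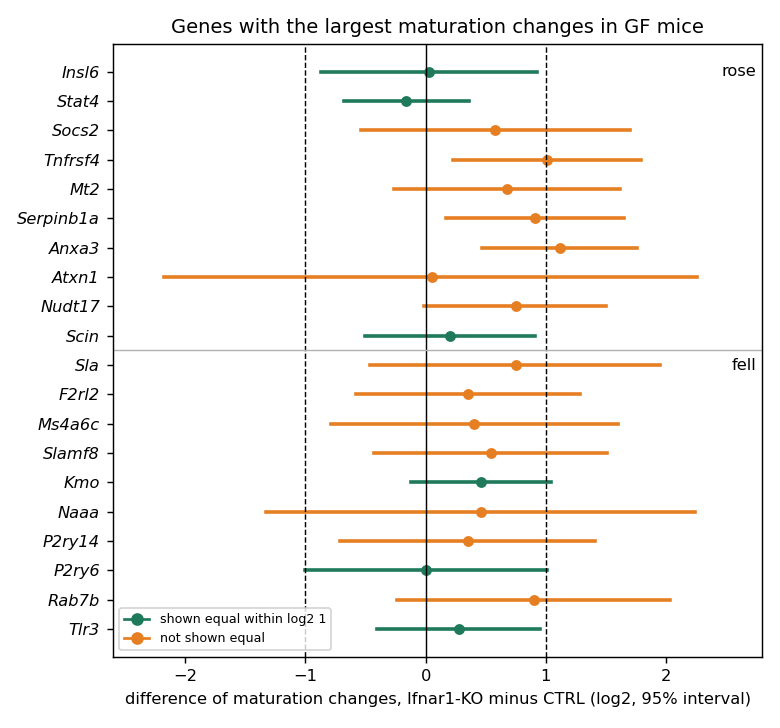
Difference of maturation changes, Ifnar1-KO minus CTRL (x axis, log2), for the 10 largest rises (top) and 10 largest falls (bottom) in GF. Points are estimates and bars 95% intervals; green genes were shown equal within log2 1 (dashed lines), which was the case for 3 rises and 3 falls. The equality test is one-sided on each side, so a 95% interval may reach slightly past the bound, as for Kmo.

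The share shown equal was given by size of change too, beside the width of the intervals (median half-width 0.69 for GF changes of log2 1 to 2 and 0.97 for those of at least 4). Among genes that changed by log2 1 to 2 in GF, 67.4% were shown equal, against 28.6% of the 63 genes with a change of at least 4. A relative measure, chosen after the data were seen, ran the other way. Whether at least 50% of the CTRL change was kept was tested with limma over all genes, and it passed for 16.2% of the smallest and 73.0% of the largest group. The room that this test allows grows with the change, so larger changes pass more easily. The median share kept was 90.7% in the smallest and 99.6% in the largest group. In all 589 of the 2150 genes (27.4%) passed, 383 risers and 206 fallers.

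Most mature dendritic cell genes rose in both backgrounds. This list and the others were chosen with earlier results of these data known, so their counts of rises and falls are no test. Of the 29 mature dendritic cell genes measured, 28 rose in Ifnar1-KO (9.42% of all genes rose) and 28 in CTRL (12.6%). The change was shown equal for 16 of them. The median difference was 0.30, and the median share kept by those that changed in GF was 112%. Cd200, an inhibitory ligand for myeloid cells, read 9.88, 9.93 and 9.83 on Ifnar1-KO CCR7+ arrays against 10.17, 10.18 and 9.98 in CTRL, and 6.47, 7.17 and 6.72 on CCR7- arrays against 7.04, 6.75 and 6.86. The CCR7- values overlapped, and the changes, 3.09 in Ifnar1-KO against 3.22 in CTRL, were shown equal (-0.13 ± 0.20, equality adjusted p 0.000576). Marcksl1, an actin-binding protein gene, and the chemokine gene Ccl19 were shown equal as well (0.03 ± 0.19 and -0.33 ± 0.33). The costimulator gene Cd86 went the other way, by limma -0.28 in Ifnar1-KO (adjusted p 0.0811) and -0.56 in CTRL (adjusted p 0.00103). It was shown equal too (0.27 ± 0.15).

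Ccr7, the receptor that leads mature dendritic cells to T cell areas and one of the genes sorted on, read 12.03, 11.87 and 11.79 on Ifnar1-KO CCR7+ arrays against 11.88, 12.04 and 12.03 in CTRL. On CCR7- arrays it read 7.85, 8.54 and 7.29 in Ifnar1-KO against 9.03, 8.98 and 8.95 in CTRL. Mature arrays overlapped, and the Ifnar1-KO immature arrays all lay below the CTRL ones. The difference of changes was 1.01 (95% interval -0.06 to 2.08) and did not pass (adjusted p 0.958). Germ-free wild-type CCR7- arrays read 9.09, 7.25 and 7.77, so 2 of 3 were as low as Ifnar1-KO, and the GF minus CTRL difference, which shares the CTRL arrays, was 0.96.

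Fscn1, the actin-bundling protein of mature dendritic cells, read 12.77, 12.58 and 12.57 on Ifnar1-KO CCR7+ arrays against 12.49, 12.73 and 12.66 in CTRL, and 6.41, 8.26 and 6.60 on CCR7- arrays against 8.48, 8.14 and 8.65. The mature values overlapped and 2 of the 3 Ifnar1-KO immature arrays lay below CTRL, with a difference of 1.35 ± 0.63. Anxa3, an annexin, read 11.37, 11.38 and 11.18 on Ifnar1-KO CCR7+ arrays against 11.22, 11.32 and 11.42 in CTRL, and 5.24, 5.87 and 5.34 on CCR7- arrays against 6.45, 6.56 and 6.83. Its immature ranges do not overlap, and the difference was 1.12 ± 0.30 (unadjusted p 0.00225). For all 10 largest rises in GF the Ifnar1-KO CCR7- mean lay below that of CTRL, while the CCR7+ mean lay above it for 2. The GF CCR7- means of Fscn1 (7.38) and Anxa3 (5.74) also lay below the CTRL means (8.42 and 6.61). Their GF minus CTRL differences, which share the CTRL arrays, were 1.04 and 0.74. Anxa3 is one of the 10 largest rises in GF, and that choice by itself favours a low GF CCR7- mean. No gene was called between Ifnar1-KO and CTRL in CCR7- cells in either direction (0.0%).

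**Figure D4:**
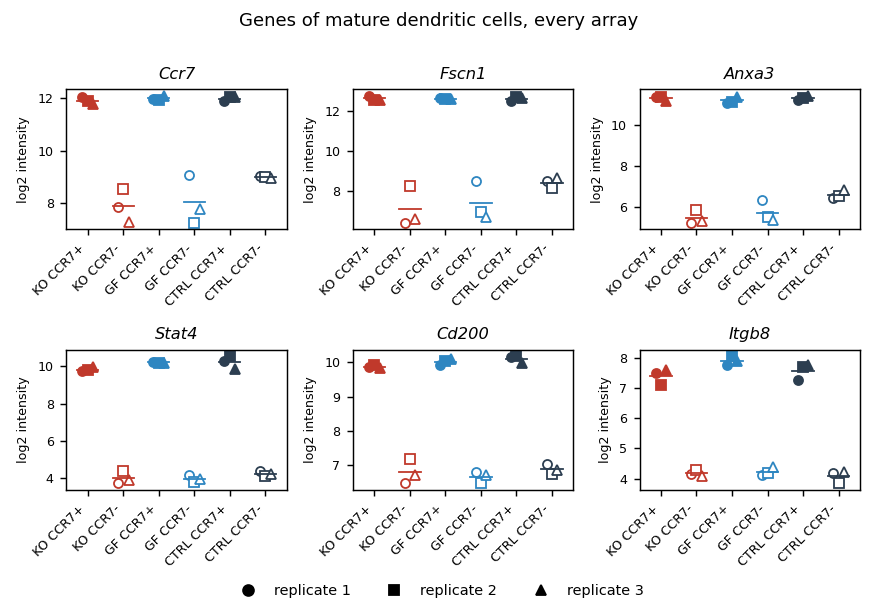
Log2 intensity (y axis) of 6 genes of mature dendritic cells on each array, with filled symbols for CCR7+ and open symbols for CCR7- cells, in Ifnar1-KO (red), GF (blue) and CTRL (dark) mice. Bars are means of 3 arrays and symbol shapes mark replicate numbers. On CCR7- arrays Ccr7 reads 7.29 to 8.54 in Ifnar1-KO against 8.95 to 9.03 in CTRL, and no gene was called between them there. Stat4, Cd200 and Itgb8 were shown equal.

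The NF-kB genes, whose products drive much of dendritic cell maturation, were shown equal for 17 of 20, with a median difference of 0.17. Without CTRL CCR7- replicate 1 the count was 11, and without both Ifnar1-KO replicate 2 arrays it was 13. Of them 19 rose in Ifnar1-KO (9.42% of all genes rose) and 19 in CTRL (12.6%). Nfkb2, a subunit of the alternative pathway, rose by 1.81 in Ifnar1-KO against 1.85 in CTRL and was shown equal (-0.04 ± 0.25). Traf2, an adaptor of tumour necrosis factor receptors, rose by 1.09 in Ifnar1-KO against 1.13 in CTRL and was shown equal (-0.04 ± 0.19). Relb, the partner of Nfkb2, rose by 3.40 in Ifnar1-KO against 2.89 in CTRL and was not shown equal (0.51 ± 0.30, equality adjusted p 0.0665; 0.0259 with the replicate block). The adhesion ligand Icam1 was both shown equal and among the 901 genes with an unadjusted p under 0.05 (0.40 ± 0.18).

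Costimulators and checkpoint ligands were shown equal for 11 of 20, and for 7 without Ifnar1-KO CCR7- replicate 1. Tnfrsf4 (OX40), a costimulator of T cells, read 10.76, 10.88 and 10.88 on Ifnar1-KO CCR7+ arrays against 10.70, 10.65 and 10.81 in CTRL, and 5.01, 4.60 and 4.74 on CCR7- arrays against 5.35, 5.72 and 5.94. The Ifnar1-KO CCR7- arrays lay below the CTRL ones without passing (adjusted p 0.681), and the difference was 1.01 ± 0.36. The checkpoint ligands Cd274 (PD-L1) and Pdcd1lg2 (PD-L2) had differences of 0.99 ± 0.51 and 0.89 ± 0.40. Cd70, ligand of the T cell receptor CD27, had a negative estimate, with 7.32, 7.20 and 6.69 on Ifnar1-KO CCR7+ arrays against 7.93, 8.20 and 7.02 in CTRL. These overlap, and the difference was -0.77 ± 0.35.

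Chemokines and cytokines were the least often shown equal of the pathway lists, at 10 of 25, beside a wide median half-width of 0.92. Cxcl16, a membrane chemokine, rose by 0.80 in Ifnar1-KO against 0.72 in CTRL and was shown equal (0.08 ± 0.13). Il6 rose by 1.48 in Ifnar1-KO, against 0.56 in CTRL (adjusted p 0.213 in CTRL), a difference of 0.92 ± 0.44 that did not pass. Genes tied to tolerance and regulatory T cells were shown equal for 13 of 18, with a median difference of 0.01. Among them Itgb8, an integrin chain that activates TGF-beta, read 7.50, 7.10 and 7.61 on Ifnar1-KO CCR7+ arrays against 7.27, 7.71 and 7.77 in CTRL, and 4.16, 4.28 and 4.08 on CCR7- arrays against 4.17, 3.84 and 4.22. Both stages overlapped, and the difference was -0.27 ± 0.22 (equality adjusted p 0.00369).

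Most genes of XCR1+ dendritic cell identity fell. Of 28, 21 fell in Ifnar1-KO (10.8% of all genes fell) and 22 in CTRL (13.6%), 14 were shown equal, and the median difference was 0.29. Dropping Ifnar1-KO CCR7+ replicate 2 gave a median of 0.52, and dropping replicate 3 of that group gave 0.06. Hepacam2, an adhesion protein gene, read 4.28, 4.46 and 4.56 on Ifnar1-KO CCR7+ arrays against 4.06, 4.63 and 4.19 in CTRL, and 8.51, 8.45 and 8.56 on CCR7- arrays against 8.55, 8.35 and 8.53. Both stages overlapped, and the change was shown equal (0.11 ± 0.18, equality adjusted p 0.000171). Xcr1 read 7.37, 4.89 and 8.36 on Ifnar1-KO CCR7+ arrays against 6.42, 6.48 and 6.30 in CTRL, so the Ifnar1-KO arrays lay on both sides of CTRL. Its difference of 0.57 had an interval of -1.26 to 2.40, which shows neither equality nor a difference. Wdfy4, needed for cross-presentation, differed by 1.12 ± 0.56 and the integrin Itgax by 0.99 ± 0.48.

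Cell cycle genes fell in both backgrounds, 34 of 38 in Ifnar1-KO (10.8% of all genes fell) and 36 in CTRL (13.6%). Of the 38, 20 (52.6%) were shown equal, close to the 53.3% of all genes that fell in GF. Dropping Ifnar1-KO CCR7- replicate 3 gave 12 and a median of 0.43, dropping Ifnar1-KO CCR7+ replicate 1 gave 13 and 0.45, and dropping CTRL CCR7+ replicate 1 gave 13 and 0.40. With all arrays the median difference was 0.31, and those that changed in GF kept a median of 85.7%. Tyms, the thymidylate synthase, changed by -2.05 in Ifnar1-KO against -2.12 in CTRL and was shown equal (0.08 ± 0.19), and Pcna, the replication clamp, was shown equal too (0.21 ± 0.20). Cdk1, the mitotic kinase, read 7.71, 7.90 and 7.55 on Ifnar1-KO CCR7+ arrays against 7.23, 7.30 and 7.25 in CTRL, and 8.73, 8.73 and 9.01 on CCR7- arrays against 8.97, 9.17 and 8.93. Its CCR7+ ranges do not overlap; the difference of 0.66 ± 0.18 had an unadjusted p of 0.00196 and still met the bound (equality adjusted p 0.0435; 0.0695 with the replicate block). Thymocyte markers averaged 7.50 on Ifnar1-KO CCR7+ replicate 2, and their part in these values was not tested. Without both Ifnar1-KO replicate 2 arrays, 23 cell cycle genes were shown equal and the median difference was 0.19. Without only the CCR7+ array of that pair these values were 19 and 0.26, and without only its CCR7- array 22 and 0.20.

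MHC class I pathway genes were shown equal for 14 of 16, with a median difference of 0.05 and a median half-width of 0.42. B2m, the light chain of class I, and the proteasome activator Psme1 each had a difference of -0.11 ± 0.10. Of 14 class II pathway genes 9 were shown equal, among them H2-Ab1 (0.12 ± 0.12) and Ctss, the protease that trims the invariant chain (0.14 ± 0.09). H2-DMa, a peptide-loading chaperone chain, read 9.08, 9.06 and 9.13 on Ifnar1-KO CCR7+ arrays against 8.14, 8.34 and 8.27 in CTRL, and 11.19, 11.50 and 11.21 on CCR7- arrays against 11.43, 11.30 and 10.95. Mature Ifnar1-KO arrays were all higher and immature ones overlapped, with a difference of 0.76 ± 0.32. H2-Eb2 had a difference of 1.23 ± 0.49, and Marchf1, a ligase that removes class II from the surface, one of -0.49 ± 0.25 (equality adjusted p 0.036; 0.0526 with the replicate block).

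The remaining pathway lists had these counts shown equal. Interferon receptors, kinases and factors reached 12 of 16, nucleic acid sensors and adaptors 11 of 14, migration and cytoskeleton 16 of 22, survival and apoptosis 10 of 15, and cholesterol synthesis and efflux 12 of 15. Jak2 and Tyk2, kinases of interferon receptors, were both shown equal (0.23 ± 0.38 and -0.33 ± 0.35). Unc93b1, which escorts nucleic acid sensing receptors to endosomes, changed by -1.38 in Ifnar1-KO against -1.48 in CTRL and was shown equal (0.10 ± 0.22). Bcl2l11 (BIM), a death inducer, was not, with a rise of 1.46 in Ifnar1-KO against 0.73 in CTRL (0.73 ± 0.31).

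Type I interferon stimulated genes moved both ways with maturation, and their differences were mostly above 0. Of 54 listed, 47 were measured, 26 (55.3%) were shown equal and 0 differed. Their median difference was 0.32, the range -0.06 to 0.96, and 44 (93.6%) lay above 0. The share above 0 was 42.8% over all genes and 69.1% over genes with a mean level of at least 6. It was 59.8% among GF risers and 82.9% among GF fallers, whose median difference was 0.31. Without adjustment, 5 of the 47 had a higher and 0 a lower difference at a p under 0.05. In Ifnar1-KO maturation 14 rose and 10 fell (9.42% and 10.8% of all genes), against 8 and 14 in CTRL (12.6% and 13.6%). Relative to CTRL the list's median was 0.16 in CCR7+ and -0.12 in CCR7- cells. These medians were 0.01 and -0.09 over genes with a mean level of at least 6. They were -0.08 and -0.12 among GF risers, and 0.14 and -0.11 among GF fallers. Of the list, 14 genes (29.8%, against 20.5% of all genes) lay below CTRL at both stages.

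The mean level of the 47 genes was 8.26, 7.35 and 7.98 on Ifnar1-KO CCR7+ arrays against 7.81, 7.50 and 7.72 in CTRL, and 7.94, 7.72 and 7.95 on CCR7- arrays against 7.92, 8.14 and 8.11. Replicate 1 was the highest Ifnar1-KO CCR7+ array for 40 of the 47 genes, and replicate 2 the lowest for 42. In CTRL CCR7+ cells replicate 2 was the lowest for 33. Without both Ifnar1-KO replicate 2 arrays the median difference of the list was 0.45, all 47 lay above 0 and 24 were shown equal. Leaving out 1 array at a time gave 17 shown equal and a median of 0.56 without Ifnar1-KO CCR7+ replicate 2, and 29 and 0.14 without replicate 1 of that group. The list's median therefore rests in part on single arrays.

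Ifi27l2a, an interferon-induced mitochondrial protein gene, read 11.06, 11.42 and 10.88 on Ifnar1-KO CCR7+ arrays against 11.92, 11.88 and 11.88 in CTRL, and 10.34, 10.93 and 10.33 on CCR7- arrays against 11.47, 11.77 and 11.71. The ranges do not overlap at either stage, although neither passed the test (-0.77, adjusted p 0.715 in CCR7+ and -1.12, adjusted p 0.0665 in CCR7- cells). The difference of changes was 0.34 ± 0.24 and was shown equal (equality adjusted p 0.0102).

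Epsti1 was the largest rise of the list, at 3.63 in Ifnar1-KO against 3.16 in CTRL. It read 12.23, 12.13 and 12.25 on Ifnar1-KO CCR7+ arrays against 12.20, 12.34 and 12.43 in CTRL, and 8.58, 8.44 and 8.70 on CCR7- arrays against 9.14, 9.11 and 9.24. Mature arrays overlapped and immature Ifnar1-KO arrays were all lower, and the difference of 0.47 ± 0.26 met the bound (equality adjusted p 0.0348). Herc6, a ubiquitin ligase for ISG15, and Trim30a, a regulator of innate signalling, were shown equal as well (0.32 ± 0.31 and 0.10 ± 0.30). Slfn1, a member of the Schlafen family, changed by -1.53 in Ifnar1-KO against -1.49 in CTRL and was shown equal (-0.03 ± 0.39).

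Ly6e, a surface protein that alters virus entry, had the smallest p of the list. It read 11.93, 11.71 and 11.87 on Ifnar1-KO CCR7+ arrays against 11.17, 10.69 and 11.19 in CTRL, and 12.76, 12.91 and 12.81 on CCR7- arrays against 12.87, 12.80 and 12.80. Immature arrays overlapped and mature Ifnar1-KO arrays lay above all CTRL ones without passing (adjusted p 0.465), and the change was -0.99 in Ifnar1-KO against -1.81 in CTRL. The difference was 0.81 (95% interval 0.33 to 1.29, unadjusted p 0.00275, adjusted p 0.958). Isg20, an exonuclease gene, had 7.82, 7.81 and 7.34 on Ifnar1-KO CCR7+ arrays against 6.97, 6.86 and 6.65 in CTRL (adjusted p 0.715), overlapping CCR7- arrays and a difference of 0.75 ± 0.26. The other 3 genes had an unadjusted p under 0.05: the RNA sensor Oas3 (0.82 ± 0.29), the DNA-binding Ifi205 (0.96 ± 0.41) and Ifit1, which binds viral RNA (0.81 ± 0.38).

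Mx1, which encodes an antiviral GTPase, had the widest spread among Ifnar1-KO arrays in the plotted genes. It read 8.61, 5.46 and 7.61 on Ifnar1-KO CCR7+ arrays against 7.36, 8.05 and 7.83 in CTRL, and 7.23, 5.70 and 6.77 on CCR7- arrays against 6.79, 7.67 and 7.76. Replicate 2 of Ifnar1-KO was lowest at both stages, and the interval of the difference was -1.67 to 2.30. The estimate was 0.31, and 1.20 without Ifnar1-KO CCR7+ replicate 2.

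**Figure D5:**
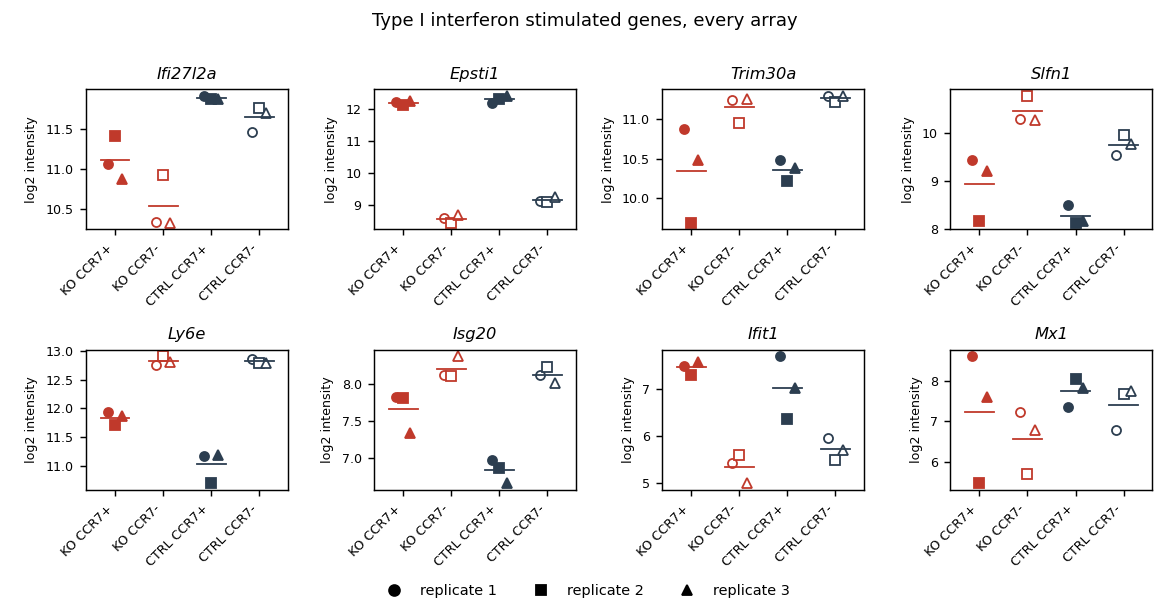
Log2 intensity (y axis) of 8 type I interferon stimulated genes on each Ifnar1-KO (red) and CTRL (dark) array, filled for CCR7+ and open for CCR7- cells, with bars at the means of 3 arrays and symbol shapes for replicate numbers. The Ifi27l2a arrays do not overlap at either stage and those of Ly6e and Isg20 do not overlap in CCR7+ cells, and none of these passed the test between backgrounds; Ifnar1-KO replicate 2 (squares) of Mx1 reads 5.46 and 5.70.

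The interferon response element was looked for in the promoters of these genes, as GAAA, any 2 bases and GAAA again, on either strand, overlapping matches allowed, in the 250 bases before to 50 after each start site in RefSeq (GRCm38.p6). It was present in 1131 of 32851 promoters (3.44%). Of 36 interferon stimulated genes with a promoter in the table, 17 (47.2%) held it. Of those 17, 6 (35.3%) were shown equal, with a median difference of 0.35, against 14 of the 19 without it (73.7%), with a median of 0.28. Over all measured genes with a promoter the shares were closer: 86.8% of 607 with it and 88.1% of 15007 without it were shown equal. A match is a description of the letters, not a site in use, and no test was made on these shares. Stretches before the start site are printed for 3 genes with a match that were not shown equal and 3 that were, picked after the values were seen, on the strand of the gene and with every match in capitals.
Ifit1 (chr19:34640784-34640833, plus strand, difference 0.81): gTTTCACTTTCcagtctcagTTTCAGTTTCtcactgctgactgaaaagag
Oas3 (chr5:120777705-120777754, minus strand, difference 0.82): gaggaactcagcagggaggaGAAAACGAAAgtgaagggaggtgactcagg
Ifi205 (chr1:174031860-174031909, minus strand, difference 0.96): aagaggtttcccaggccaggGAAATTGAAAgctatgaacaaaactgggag
Bst2 (chr8:71537567-71537616, minus strand, difference 0.19): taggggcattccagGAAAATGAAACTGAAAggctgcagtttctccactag
Stat2 (chr10:128270256-128270305, plus strand, difference 0.04): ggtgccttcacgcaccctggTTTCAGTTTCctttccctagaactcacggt
Trim30a (chr7:104465200-104465249, minus strand, difference 0.10): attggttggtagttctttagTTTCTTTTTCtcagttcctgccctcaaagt
Ifit1, Oas3 and Ifi205 share the element with Bst2, Stat2 and Trim30a, so genes on both sides of the equality test carry it. In Ifit1 and Bst2 the stretch holds more than 1 match, and Stat2 and Trim30a, like Ifit1, carry it on the opposite strand.

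Genes known as targets of interferon gamma, which signals through another receptor, were shown equal for 6 of 13, with a median difference of 0.49. Gbp3, a guanylate-binding protein gene, read 5.79, 6.80 and 6.07 on Ifnar1-KO CCR7+ arrays against 5.76, 5.35 and 5.33 in CTRL, and 3.93, 3.80 and 4.06 on CCR7- arrays against 4.26, 4.42 and 4.32. The ranges do not overlap at either stage, neither stage passed the test between backgrounds, and the difference was 1.14 ± 0.28 (unadjusted p 0.00107). Cxcl9, a chemokine of this response, changed by -1.95 in Ifnar1-KO against -3.08 in CTRL (1.13 ± 0.51). Irf1, the factor that carries much of the response, rose by 3.65 in Ifnar1-KO against 3.17 in CTRL and was not shown equal (0.49 ± 0.35, equality adjusted p 0.0906).

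Over all genes, the 8 higher differences with the smallest p belonged to Adgre5, Ptpn22, Klra5, Csnk1g3, Iars2, Gbp3, Mab21l3 and Anapc2, of which Csnk1g3 and Anapc2 were shown equal. Adgre5 (CD97), an adhesion receptor of leukocytes, read 8.29, 8.60 and 8.60 on Ifnar1-KO CCR7+ arrays against 7.77, 7.75 and 7.34 in CTRL, and 9.92, 9.81 and 10.01 on CCR7- arrays against 10.14, 10.02 and 10.04. The mature ranges do not overlap, and the change was -1.42 in Ifnar1-KO against -2.45 in CTRL, a difference of 1.03 ± 0.18 (unadjusted p 4.2e-05, adjusted p 0.837). In mature cells alone it was called (0.88, adjusted p 0.0381), 1 of 2 genes higher in Ifnar1-KO there (0.01%), the other being Eif2s3y. Ptpn22, a phosphatase that dampens antigen receptor signals, read 6.35, 6.53 and 6.77 on Ifnar1-KO CCR7+ arrays against 5.04, 5.12 and 4.96 in CTRL, and 9.25, 8.92 and 9.21 on CCR7- arrays against 9.05, 9.18 and 9.27. Only the mature arrays separate, and the difference was 1.55 ± 0.33.

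All 8 of the lower differences with the smallest p were shown equal within log2 1: Gpc1, Krt16, Kctd12b, Tmem229a, Cdc20b, Slc12a8, Oxct2a and H2-Q2. Gpc1, a heparan sulphate proteoglycan, read 5.83, 5.67 and 5.68 on Ifnar1-KO CCR7+ arrays against 6.34, 6.29 and 6.37 in CTRL, and 4.67, 4.59 and 4.56 on CCR7- arrays against 4.49, 4.58 and 4.70. It rose by 1.12 in Ifnar1-KO against 1.74 in CTRL, and was the 1 gene called lower in Ifnar1-KO CCR7+ cells (-0.61, adjusted p 0.0325, 0.00502% of genes). Its difference of changes, -0.62 (95% interval -0.87 to -0.37), lay away from 0 unadjusted and within the bound (equality adjusted p 0.00429), so equality within log2 1 leaves room for a difference of this size. The other 7 had differences of -0.35 to -0.62. Among them Krt16, Kctd12b, Cdc20b and Oxct2a were low, with Ifnar1-KO and CTRL group means of 3.31 to 4.67. Those of H2-Q2 were 5.50 to 6.17. Of all genes with a mean level under 4, 99.3% were shown equal, and of those at 4 to 5, 95.5%.

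Lists of other cell types stand beside the shares of all genes shown equal at each mean level. These were 99.3% under 4, 95.5% at 4 to 5, 80.2% at 5 to 6 and 69.5% at 6 to 7. B cells had 9 of 9 shown equal, thymic epithelium 10 of 10, red cells 4 of 4 and macrophages and monocytes 7 of 8. CD172a+ dendritic cells had 8 of 10, natural killer cells 8 of 10 and plasmacytoid dendritic cells 5 of 8. The mean level per array was 5.97 to 6.85 for the plasmacytoid list and 5.08 to 5.58 for thymic epithelium. Thymocyte markers stood at 6 of 18 with a median half-width of 1.5. Stress and immediate early genes were shown equal for 11 of 17, including Fos (0.11 ± 0.32), and for 6 to 9 with 1 array left out. Among Ifnar1-KO arrays, dropping CCR7- replicate 3 gave 6 and dropping CCR7- replicate 1 or CCR7+ replicate 3 gave 7. Among CTRL arrays, dropping CCR7- replicate 1 gave 6 and dropping CCR7- replicate 3 or CCR7+ replicate 2 gave 7. The genes beside Ifnar1 on chromosome 16 were shown equal for 13 of 20 with a median difference of 0.10. The smallest p there belonged to Olig1 (-0.43 ± 0.12), which was shown equal. Among the genes of the gate, Itgam and Sirpa were shown equal, while Kit (0.21 ± 0.47) and Cd8a (0.69 ± 0.26) were not.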

How the data were processed

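The deposited table holds log2 intensities, made by the authors with RMA in the oligo package per the submitters' processing notes, from Affymetrix arrays hybridised after NuGEN Ovation Pico amplification, per the labels' protocols. No source used here gives a version or says which arrays were normalised in 1 run. Of 35556 probesets, 21789 had 1 symbol, 1621 several and 12146 none; for 999 genes with several probesets the one with the highest mean over 18 arrays was used. No level filter and no further normalisation were applied. Arrays have no read depth, and their number limits the precision.

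Limma 3.58.1 (R 4.3.3, statmod 1.5.0) was fitted to all 18 arrays with 1 mean per group (12 residual and 14.4 total degrees of freedom). ± marks SE unless stated, and adjusted p-values are Benjamini-Hochberg values over 19938 genes. Equality used the larger of 2 one-sided moderated p-values against log2 -1 and 1. The functions were tested on simulated data. Members and lists were chosen with earlier results of these data known. Named genes were Ifnar1, the sort genes, the 8 smallest p per direction, the 10 largest called GF changes per direction (both without predicted, clone, RIKEN and small RNA names), any type I interferon stimulated gene, and per list the 2 smallest p per direction and the 3 smallest equality p among genes called in GF. The test of at least 50% kept was added after the data were seen.

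Replicate numbers were checked as pairs: deviations of CCR7+ and CCR7- arrays correlated at 0.2845, 0.3212 and 0.236 in Ifnar1-KO and 0.1878, 0.1465 and 0.1001 in CTRL, all over 0.1. The reported values come from a fit without the block. Alternatives were an intensity trend, a robust fit, weights, the 12 arrays alone, genes at or above the median level, centred arrays, all probesets, the trailing r of some array codes, the block, other bounds and leaving out arrays. Figures used matplotlib 3.10.9, pandas 2.3.3 and numpy 2.4.6 in Python 3.11.15.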

Additional observations from a re-analysis of the deposited data

How the results depend on the processing

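No gene was called different under any of the 24 other fits. The smallest adjusted p was 0.0611 with the 12 arrays alone. The 901 genes with an unadjusted p under 0.05 became 567 when Ifnar1-KO CCR7- replicate 2 was left out and 1601 when replicate 3 of that group was. With each array left out in turn, 16617 to 18017 genes were shown equal, 1032 to 1416 of those that mature in GF, and 88.5% to 94.1% of the change was kept. With the replicate block, 0 genes were called, 18088 were shown equal, 1432 of the genes that mature in GF, and 91.5% was kept. Among the 224 named genes the pairing gave equality to 9 and took it from 5.

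With 1 array left out, the counts shown equal of the NF-kB, costimulator, cell cycle, stress and interferon lists moved by over 1.5 times, as given beside them. Genes at or above the median level gave 7629 shown equal, of 9969 tested. A bound of log2 0.5 gave 8915 of all genes and 63 of the genes that mature in GF, and a bound of log2 1.5 gave 1954 of the genes that mature in GF. Genes called in GF with any size of change gave 3248. The test of at least 50% kept, added after the data were seen, gave 589. Among 224 named genes over 23 alternatives, 4855 of 5117 calls of equality stayed as reported, 189 were lost and 73 gained. With arrays centred on their medians 17306 genes were shown equal.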
